A study of Rattus norvegicus with 36 samples.

Results

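Expression of 5 circadian clock genes was described in rat dorsal striatum after saline or cocaine. These were Arntl (ENSRNOG00000014448), Nr1d1 (ENSRNOG00000009329), Dbp (ENSRNOG00000021027), Per1 (ENSRNOG00000007387) and Per2 (ENSRNOG00000020254), 5 of the 32402 gene IDs counted. They were selected on measured values, namely the CPM differences between the groups of these same libraries, which were already known when the genes were picked as members of the clock. Their differences between groups are therefore given as a description, with standard errors and without a test.

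The rats were 8-week-old Sprague-Dawley males. Sal–Sal rats received 15 saline injections and Coc–Coc rats 15 cocaine injections. Sal–Coc rats were labelled as having had 13 saline and then 3 cocaine injections, which together exceed 15. The study's methods give 3 injections on each of 5 days, a total of 15. Why the label differs was not resolved. Cocaine was injected in daily morning binges, so that it reached Sal–Coc rats only on the last of the treatment days and Coc–Coc rats daily. All were kept on a light/dark cycle and killed a day after the last injection. Per the study's methods the last injection of a day was given at noon, which places death near midday, in the first part of the light phase. A time of death for each pool was not given in the sources used here. Expression was measured at a single time of day, so the course of these genes over the day and its timing were not measured. Each library came from a pool of RNA from a pair of rats, and each group had 3 pools, numbered 5, 6 and 7 with different rats in each group. The labels name the tissue as dorsal striatum, which was not checked against marker genes here because the files hold IDs without names.

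The circadian clock is a loop of transcription factors that runs in most cells. ARNTL (also called BMAL1) pairs with CLOCK or NPAS2 and switches on genes with an E-box, among them Per1, Per2, Nr1d1 and Dbp. PER proteins, with CRY proteins, then inhibit the ARNTL complex. NR1D1 (REV-ERB alpha) is a nuclear receptor that represses Arntl through RORE sequences, so that Arntl transcripts cycle opposite to those of Nr1d1 and Dbp. In striatum, Per1 and Per2 are also known to respond to dopamine signalling and psychostimulants.

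The promoters of the genes are shown because the loop acts through short sequences in them. They were taken from RefSeq (build GRCr8, not the Ensembl assembly used for counting), as the 250 bases before a start site, and both strands were searched for 5 motifs. These were the E-box CACGTG, its variant CACGTT, the D-box (TTATGTAA or TTACGTAA), the core of a RORE (TAGGTCA or TGGGTCA) and the cyclic AMP response element TGACGTCA. They occurred in 5.59%, 4.07%, 0.932%, 5.62% and 1.59% of the 33469 promoter windows. Capitals mark each match, and no matches overlapped. Arntl (listed as Bmal1, chr1:176766078-176766327, plus strand) held a RORE core that began 16 bases before the start. Per2 (chr9:99496994-99497243, minus strand) held a D-box that began 192 bases before the start and a CACGTT at 62 bases. Nr1d1 is shown at the 2nd of its 2 listed starts (chr10:84229455-84229704, minus strand), which held an E-box at 191 bases.
Arntl: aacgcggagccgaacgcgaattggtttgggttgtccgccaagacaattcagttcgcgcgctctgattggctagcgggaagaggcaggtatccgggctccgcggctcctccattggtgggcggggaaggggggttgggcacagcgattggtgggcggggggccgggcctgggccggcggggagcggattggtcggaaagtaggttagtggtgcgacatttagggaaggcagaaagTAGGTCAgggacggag
Per2: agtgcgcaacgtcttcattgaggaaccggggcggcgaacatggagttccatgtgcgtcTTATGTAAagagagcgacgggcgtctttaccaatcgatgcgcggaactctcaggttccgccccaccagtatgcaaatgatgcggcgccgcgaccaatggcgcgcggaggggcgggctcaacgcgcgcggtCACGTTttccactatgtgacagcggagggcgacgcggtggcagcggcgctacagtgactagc
Nr1d1: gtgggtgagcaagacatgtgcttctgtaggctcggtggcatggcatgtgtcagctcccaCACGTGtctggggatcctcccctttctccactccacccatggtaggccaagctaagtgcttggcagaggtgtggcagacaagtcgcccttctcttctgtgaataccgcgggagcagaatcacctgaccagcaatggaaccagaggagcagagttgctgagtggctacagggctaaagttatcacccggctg
The first start of Nr1d1 held a CACGTT on the opposite strand at 174 bases. The listed windows of Dbp and Per1 held none of these letters. A match is a description of sequence only, and binding was not measured here.

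Total counts ran from 29870775 to 39493867 per pool, after the 4 technical replicates of a pool were summed. The 5 genes were well above the limit of counting, with 1242 to 10910 reads per gene and pool. Counting error alone was 0.957% to 2.84% of a value. Between technical replicates, counts differed by about as much as sampling predicts, with a chi-square per degree of freedom that averaged 1.13 over the 45 combinations of gene and pool and an unadjusted p-value under 0.05 in 3 of 45. Pool 5 of Coc–Coc stood apart across the transcriptome, where 624 genes deviated by a factor of 2 or more from the median of the remaining pools. This number was 129 to 263 elsewhere. Values of Coc–Coc are therefore also given without it. In bulk tissue, fewer cells of a type and less RNA per cell cannot be told apart.

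Arntl, the activator of the loop and the gene with the RORE core, was lower after cocaine and lowest in Coc–Coc. Scaled to library size as CPM, it was at 64.3, 61.4 and 57.3 in pools 5, 6 and 7 of Sal–Sal. It was at 46.5, 46.4 and 43.7 CPM in those of Sal–Coc and at 30.5, 38.4 and 38.7 CPM in those of Coc–Coc. The order Sal–Sal, Sal–Coc, Coc–Coc held without overlap of any pools. This full descending order was seen in 24 of the 15884 genes tested (0.151%). Arntl was chosen with these group values known and other orders were not counted, so this share is a description and no test. The mean was 61.0 CPM in Sal–Sal (SD 3.51, n = 3), 45.5 in Sal–Coc (SD 1.58, n = 3) and 35.9 in Coc–Coc (SD 4.64, n = 3). Expressed as a log2 fold change, Sal–Coc differed from Sal–Sal by -0.42 ± 0.09 (SE) and Coc–Coc by -0.77 ± 0.09, while Coc–Coc differed from Sal–Coc by -0.34 ± 0.09. Between Coc–Coc and Sal–Sal, 1.8% of tested genes had a larger absolute difference than Arntl. Without pool 5 of Coc–Coc the mean of that group was 38.6 CPM, still below each Sal–Coc pool, and the log2 differences were -0.66 from Sal–Sal and -0.24 from Sal–Coc.

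Nr1d1, the repressor of Arntl, had overlapping pools in all 3 comparisons. It was at 124, 133 and 135 CPM in Sal–Sal, at 127, 136 and 143 CPM in Sal–Coc and at 127, 153 and 144 CPM in Coc–Coc. Pool 5 was the lowest of each group, and the highest pools ranged from 135 to 153 CPM. The mean was 130.3 CPM (SD 5.94), 135 CPM (SD 7.87) and 141 CPM (SD 13.2) in the same order (n = 3 each). The log2 difference from Sal–Sal was 0.06 ± 0.08 (SE) for Sal–Coc and 0.12 ± 0.08 for Coc–Coc, and that of Coc–Coc from Sal–Coc was 0.06 ± 0.08. Without pool 5, Coc–Coc differed by 0.19 from Sal–Sal and by 0.13 from Sal–Coc, and without pool 6 by 0.05 and -0.0024. Over all pools left out, the difference of Sal–Coc from Sal–Sal was 0.02 (without pool 7 of Sal–Coc) to 0.10 (without its pool 5). Per the RefSeq gene table, the end of Nr1d1 overlaps Thra, a thyroid hormone receptor gene on the opposite strand. The strand setting of the counting was not given in the sources used here, so reads from the shared stretch cannot be told apart.

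Dbp, a PAR bZIP factor that carries the rhythm to output genes with a D-box, was higher after cocaine. Its Sal–Sal pools were at 145, 177 and 182 CPM, and its Sal–Coc pools at 203, 191 and 270.3 CPM. The Coc–Coc pools were at 219, 288 and 261 CPM. Each cocaine pool lay above each saline pool, and the pools of both cocaine schedules overlapped. The mean was 168 CPM (SD 19.9), 221 CPM (SD 42.8) and 256 CPM (SD 35.1), in the order Sal–Sal, Sal–Coc and Coc–Coc (n = 3 each). The log2 difference of Sal–Coc from Sal–Sal was 0.40 ± 0.15 (SE), and 0.23 without pool 7 of Sal–Coc. That of Coc–Coc from Sal–Sal was 0.61 ± 0.15, where 3.27% of tested genes had a larger absolute difference, and 0.71 without pool 5 of Coc–Coc. Coc–Coc differed from Sal–Coc by 0.21 ± 0.15. This was 0.31 without pool 5 and 0.11 without pool 6 of Coc–Coc, and 0.12 without pool 6 and 0.38 without pool 7 of Sal–Coc.

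**Figure D1:**
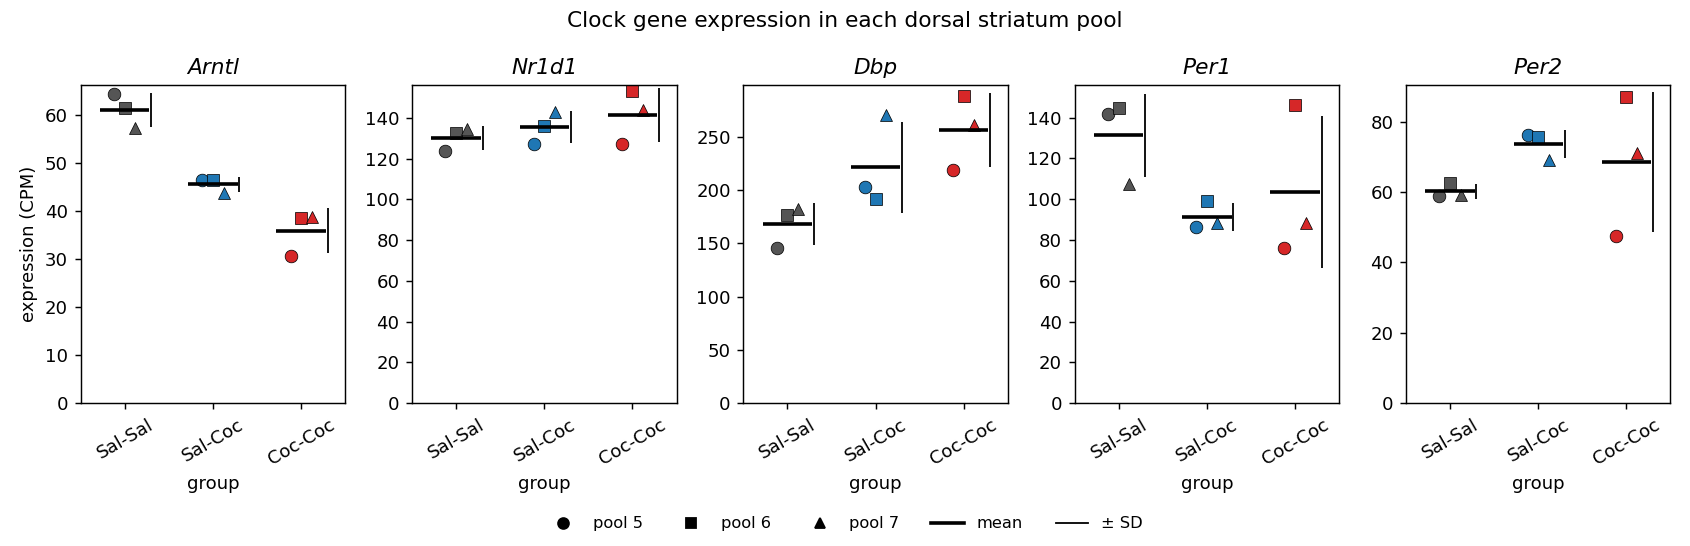
Expression of Arntl, Nr1d1, Dbp, Per1 and Per2 in CPM (vertical axes, from 0) in the 3 pools of each group (horizontal axes), with pool 5 as a circle, pool 6 as a square and pool 7 as a triangle, the group mean as a thick bar and its SD as a thin line. Arntl steps down from between 57.3 and 64.3 CPM without cocaine to between 30.5 and 38.7 CPM in Coc–Coc, Dbp lies above 182 CPM in each cocaine pool, and Per1 and Per2 are widest in Coc–Coc.

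Per1 and Per2, paralogous repressors of the loop, differed between Sal–Coc and Sal–Sal in opposite directions, whereas the Coc–Coc pools of both overlapped Sal–Sal. Per1 was at 142, 145 and 108 CPM in Sal–Sal and at 86.2, 99.0 and 88.4 CPM in Sal–Coc. In Coc–Coc it was at 76.3, 146 and 88.4 CPM. The Sal–Coc pools lay below each Sal–Sal pool, while pool 6 of Coc–Coc exceeded all the others and its remaining pools lay near Sal–Coc. The mean was 131 CPM (SD 20.5), 91.2 CPM (SD 6.85) and 104 CPM (SD 37.4), in the order Sal–Sal, Sal–Coc and Coc–Coc (n = 3 each). The log2 difference from Sal–Sal was -0.52 ± 0.21 (SE) for Sal–Coc and -0.34 ± 0.21 for Coc–Coc. As the SE rests on the spread within all groups, that of Sal–Coc against Sal–Sal was 0.12 without pool 6 of Coc–Coc. Coc–Coc differed from Sal–Coc by 0.18 ± 0.21. Leaving out pool 6 of Coc–Coc moved these values of Coc–Coc to -0.68 and -0.15, and leaving out pool 5 moved them to -0.16 and 0.36, so that a single pool set the direction between the cocaine groups.

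Per2 was at 58.8, 62.5 and 59.2 CPM in Sal–Sal and at 76.3, 75.8 and 69.1 CPM in Sal–Coc, with each Sal–Coc pool above each Sal–Sal pool. The Coc–Coc pools, at 47.5, 87.0 and 71.1 CPM, reached below and above all pools of the other groups. The mean was 60.2 CPM (SD 2.01), 73.7 CPM (SD 4.01) and 68.5 CPM (SD 19.9), in the order Sal–Sal, Sal–Coc and Coc–Coc (n = 3 each). The log2 difference from Sal–Sal was 0.29 ± 0.17 (SE) for Sal–Coc and 0.19 ± 0.17 for Coc–Coc, which differed from Sal–Coc by -0.11 ± 0.17. The SE of Sal–Coc against Sal–Sal also reflects the wide Coc–Coc pools, and was 0.079 without pool 5 of Coc–Coc. Without pool 5, Coc–Coc differed from Sal–Sal by 0.39 and from Sal–Coc by 0.10. Without pool 6 these differences were -0.03 and -0.32.

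Counted over the 5 genes, the pools of Sal–Coc and Sal–Sal did not overlap for Per2 and Dbp, which were higher in Sal–Coc, and for Arntl and Per1, which were lower. Over all 15884 genes tested, 8.87% were higher and 9.51% lower without overlap in this comparison. Between Coc–Coc and Sal–Sal the pools did not overlap for Dbp, which was higher, and Arntl, which was lower, against 6.50% and 6.06% of all genes. Between Coc–Coc and Sal–Coc they did not overlap for Arntl, which was lower, against 5.55% of all genes, and for 0 of 5 that were higher, against 5.08%. In edgeR's quasi-likelihood test across all genes, 0 genes (0.00%) had an adjusted p-value under 0.05 in any of these comparisons. Before adjustment, 1265, 1141 and 1100 genes had a p-value under 0.05 in the order just given, and DESeq2 called 59, 24 and 2 genes. Any 2 of these comparisons share the pools of a group.

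**Figure D2:**
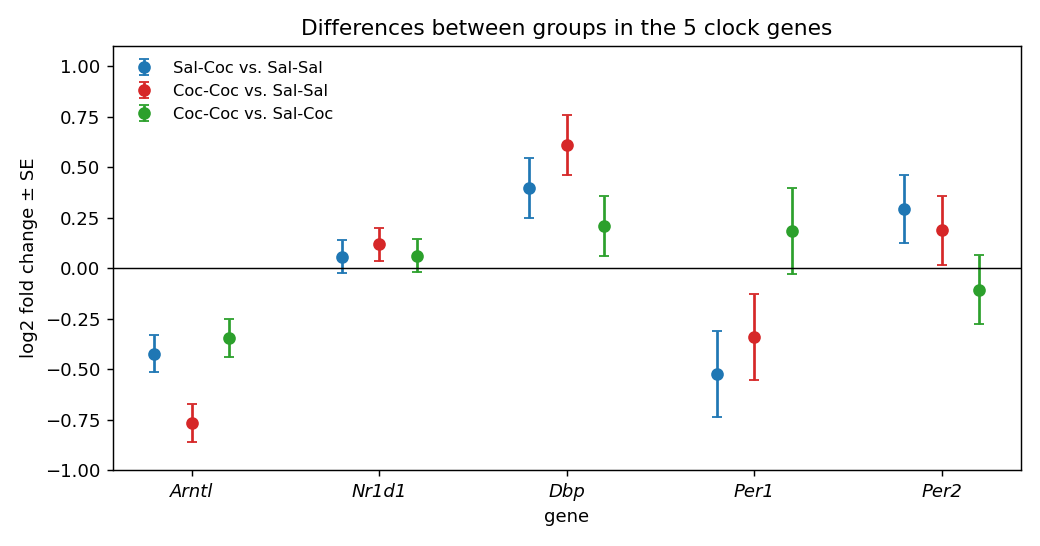
Log2 fold change between groups (vertical axis) of the 5 clock genes (horizontal axis), with its standard error as a bar, for each cocaine group against Sal–Sal and for Coc–Coc against Sal–Coc. Arntl lies below 0 throughout and reaches -0.77, Dbp lies above 0 and reaches 0.61, Nr1d1 stays within 0.12 of 0, and Per1 lies below and Per2 above 0 for Sal–Coc against Sal–Sal. The signs of Per2 in Coc–Coc, and of Per1 and Nr1d1 between the cocaine groups, turn when a single Coc–Coc pool is left out.

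A ratio of the counts of 2 genes within a pool does not depend on how libraries are scaled. Only its difference between groups can be read, since its level also reflects the lengths of both genes. The log2 ratio of Arntl to Nr1d1 was -0.94, -1.11 and -1.23 in Sal–Sal, -1.46, -1.55 and -1.71 in Sal–Coc and -2.06, -1.99 and -1.90 in Coc–Coc. Its means of -1.10 (SD 0.15), -1.57 (SD 0.13) and -1.98 (SD 0.08) were separated by more than the spread of the pools, with no overlap between groups. The pools of the log2 ratio of Arntl to Dbp were likewise apart, at -1.67 to -1.18 in Sal–Sal, -2.63 to -2.04 in Sal–Coc and -2.91 to -2.76 in Coc–Coc. Arntl alone already separated the groups, so these ratios are not independent of its difference. How often the ratios of other gene pairs separate the groups was not computed. Pool 5 of Coc–Coc, low in each gene on its own, lay with the remaining Coc–Coc pools on these ratios.

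The log2 ratio of Arntl to Per2 was 0.02 in Sal–Sal (SD 0.10), -0.69 in Sal–Coc (SD 0.03) and -0.90 in Coc–Coc (SD 0.27; n = 3 each). The SD in Sal–Coc was no larger than counting error alone would give. The Sal–Sal pools lay above all 6 cocaine pools, which overlapped between schedules at -0.72 to -0.66 in Sal–Coc and -1.18 to -0.64 in Coc–Coc. The log2 ratio of Arntl to Per1 was -1.24 to -0.91 in Sal–Sal, which overlapped both cocaine groups, and each Coc–Coc pool, at -1.93 to -1.19, lay below each Sal–Coc pool, at -1.09 to -0.89. Between the paralogs, the log2 ratio of Per1 to Per2 was 1.27, 1.21 and 0.86 in Sal–Sal, against 0.18, 0.39 and 0.36 in Sal–Coc and 0.68, 0.75 and 0.31 in Coc–Coc. Each saline pool was above each cocaine pool on this ratio, which was chosen after the values had been seen.

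**Figure D3:**
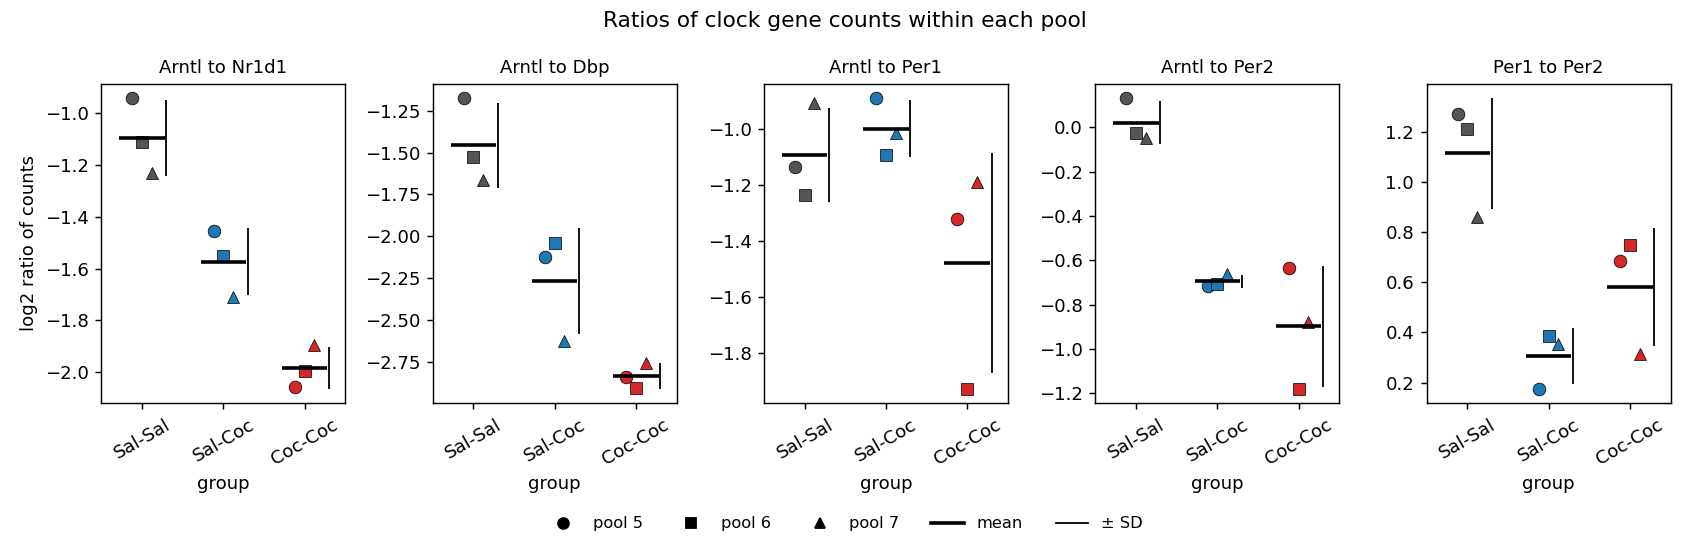
Log2 ratio of read counts within each pool (vertical axes, with separate ranges) by group (horizontal axes), for Arntl to Nr1d1, Dbp, Per1 and Per2 and for Per1 to Per2. Symbols are pools, thick bars are group means and thin lines are SDs. The ratios of Arntl to Nr1d1 and to Dbp step down over the 3 groups without overlap, and that of Per1 to Per2 is at 0.86 or more in Sal–Sal and at 0.75 or less after cocaine.

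Within groups, the genes differed in how much the pools varied. Pooled over the groups, the within-group SD on the log2 scale was 0.32 for Per1, 0.26 for Per2, 0.22 for Dbp, 0.13 for Arntl and 0.10 for Nr1d1, beside a median of 0.15 over all tested genes. For Per1 and Per2 it came largely from Coc–Coc. The SD of Per2 was 29% of its mean CPM after repeated cocaine, but 3.34% without cocaine and 5.4% after a single day of it. Over these groups Per1 had 36.1%, 15.6% and 7.51%, and Dbp had 13.7%, 11.85% and 19.3%. Outside Coc–Coc, Dbp thus varied more than Per2, and the pooled order does not hold in each group. A smaller SD was found for 82.4% of tested genes in the case of Per1 and for 27.9% in that of Nr1d1. Less abundant than Per1 were 88.3% of tested genes, and less abundant than Nr1d1 91.4%. The shares are thus not taken among genes of like abundance. All 5 genes were lowest in pool 5 among the Coc–Coc pools, and 4 of 5 were highest in pool 6. Counting error was small beside the pooled spread. At up to 2.28% of a value for Per2, it was not small beside the 3.34% of that gene without cocaine.

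Whether the genes varied together between pools of the same group was asked for the 10 pairs, on deviations of log2 CPM from the group mean over the 9 pools, a measure that group differences do not enter. Pearson's r was positive in 10 of 10 pairs, and 0 of 10 passed an adjusted p-value of 0.05 in a two-sided exact permutation test over the 216 orders of pools within groups, whose smallest possible p-value is 0.00463. For 1 of 10 pairs the unadjusted p-value was under 0.05. This was Dbp and Nr1d1, with r = 0.84 (exact permutation p = 0.0185, adjusted p = 0.185) and Spearman's rho = 0.92 (exact permutation p = 0.0185, adjusted p = 0.185). Their r was 0.82 without the 2 pools farthest from the median of Dbp and 0.81 to 0.96 when any single pool was left out. With a block for pool number their r was 0.75 (exact permutation, adjusted p = 0.525). Under that block r was highest for Per1 and Nr1d1, at 0.93 (exact permutation, adjusted p = 0.37). Without pool 6 or 7 of Sal–Sal or of Coc–Coc, the unadjusted p-value was under 0.05 for 0 of 10 pairs. For Arntl and Per2, r was 0.86 and rho 0.73 (exact permutation p = 0.0694 and 0.148, adjusted p = 0.347 and 0.66). That r was 0.65 without the 2 farthest pools and 0.19 without pool 5 of Coc–Coc.

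Arntl and Nr1d1 deviated with r = 0.44 and rho = 0.22 (exact permutation p = 0.574 and 0.741, adjusted p = 0.664 and 0.823). Their r was -0.03 without the 2 farthest pools and -0.77 without pool 5 of Coc–Coc (exact permutation, adjusted p = 0.231), so its sign rested on that pool. For Arntl and Dbp, r was 0.12 with all pools (exact permutation p = 0.815, adjusted p = 0.815). It was -0.825 without pool 5 of Coc–Coc (exact permutation, adjusted p = 0.231) and -0.06 without pool 6 of Coc–Coc. Over the 10 pairs, r was below 0 in 6 once the 2 farthest pools were left out.

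**Figure D4:**
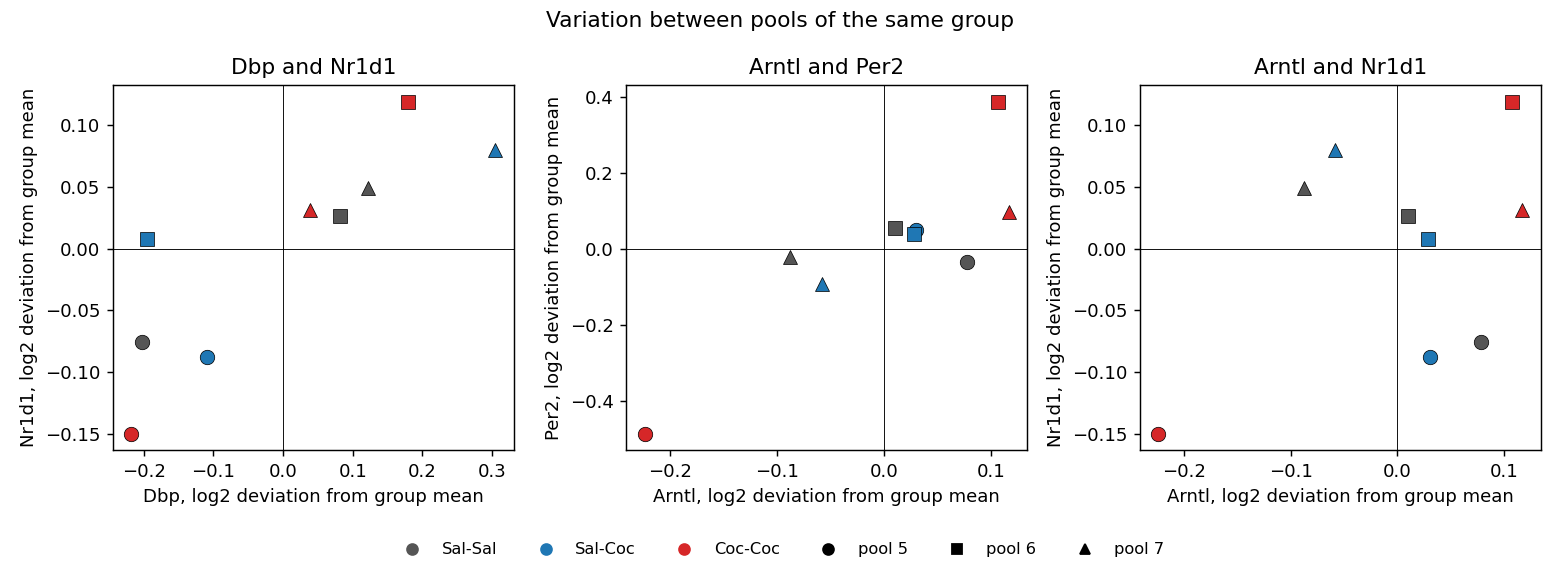
Deviation of log2 CPM from the group mean in the 9 pools, for Nr1d1 against Dbp, Per2 against Arntl and Nr1d1 against Arntl, with groups by colour and pool numbers by symbol. For Nr1d1 and Dbp r is 0.84, which did not pass adjustment, and pool 5 of Coc–Coc, at the lower left of each panel, sets the sign of r for Arntl and Nr1d1.

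By the likeness of their pattern over the 9 pools, measured as Pearson's r of log2 CPM over the other 15883 tested genes, the gene closest to Per2 was ENSRNOG00000020058 (r = 0.96) and that closest to Arntl was ENSRNOG00000033556 (r = 0.96). The latter was at 84.6 CPM in Sal–Sal (SD 3.36), 76.9 CPM in Sal–Coc (SD 1.68) and 71.5 CPM after repeated cocaine (SD 3.42; n = 3 each). The most opposite patterns were those of ENSRNOG00000008000 to Nr1d1 (r = -0.99) and of ENSRNOG00000011107 to Dbp (r = -0.95). These IDs were not paired with names. Each r is the extreme of 15883 correlations over only 9 pools, so its size partly reflects the search, and it was not tested.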

How the data were processed

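RNA-seq was analysed in 36 samples of rat dorsal striatum, namely 9 pools with 4 technical replicates each. The authors purified poly(A) RNA, made stranded libraries, trimmed and filtered the reads, aligned them to the Ensembl rat genome with STAR, removed reads that mapped more than once and, per the labels, counted with HTSeq (0.5.3). The deposited files held raw counts of reads per Ensembl gene, without normalisation. Reads of near-identical copies are thus missing.

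Technical replicates were summed per pool, and n counts pools. Differential expression was fitted in R (4.3.3) with edgeR (4.0.16) on the 15884 genes kept by filterByExpr (minimum count 10, minimum total count 15), with TMM factors (0.962 to 1.04), a mean per group over all 9 pools and tested by quasi-likelihood. P-values were adjusted by the Benjamini-Hochberg method over all tested genes. A prior count of 2 was used for log2 CPM. Standard errors were derived from the F statistic and rest on the spread within all groups, also those not compared. Fits and permutation tests were checked on simulated data. Alternatives were DESeq2 (1.42.0), RLE and upper-quartile scaling, other filters, a prior count of 0.5, technical replicate a alone, a block for pool number and leaving out each pool. Named genes were the 5 members and the genes most and least alike in pattern. The members, lists and tests were chosen with earlier results of these data known. Names of the 5 IDs came with their choice. Lists of other clock genes and of cell type markers were not tested, because no table at hand paired IDs with names. The reads of a gene in a pool set the counting error given, which covers counting only, as molecules were not tagged before amplification. CPM are counts scaled by the effective library size.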

Additional observations from a re-analysis of the deposited data

How the results depend on the processing

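With edgeR's quasi-likelihood test, the number of differentially expressed genes moved from 0 to 59 and 24 with DESeq2 for Sal–Coc and Coc–Coc against Sal–Sal, to 2 for Coc–Coc against Sal–Coc, and to 2 for Coc–Coc against Sal–Sal with no filter on low counts. It was 0 in each comparison under RLE or upper-quartile scaling, at least 10 counts in every pool and technical replicate a alone. Leaving out each pool in turn gave 0 to 6 genes for Coc–Coc against Sal–Sal (4 without pool 5 and 6 without pool 6 of Coc–Coc) and 0 in the other comparisons. Of 225 log2 fold changes of the 5 genes under alternatives, 2 moved by more than the SD between pools, both of Per1 without pool 6 of Coc–Coc. The range over pools left out was -0.68 to -0.16 for Per1 and -0.0298 to 0.39 for Per2 between Coc–Coc and Sal–Sal, and -0.15 to 0.36 for Per1 between Coc–Coc and Sal–Coc. Signs turned without pool 6 of Coc–Coc for Per2 against Sal–Sal (-0.0298) and, against Sal–Coc, for Per1 (-0.15) and Nr1d1 (-0.0024), and without pool 5 for Per2 against Sal–Coc (0.10). Arntl kept its sign under all alternatives, at -0.83 to -0.66 between Coc–Coc and Sal–Sal and -0.40 to -0.24 between Coc–Coc and Sal–Coc over pools left out. Under a replicate block for pool number, 0 genes passed in each comparison, the Arntl difference of Coc–Coc from Sal–Sal was -0.77, and 0 of 10 within-group correlations passed. Same-numbered pools deviated with correlations of -0.193 to 0.156 across genes. In the 3 comparisons, 1, 2 and 3 of 6 pools were closest to their own number, so no pairing by number showed across all genes. For single genes such pairing was not tested. Dbp and Nr1d1 were below their group mean in pool 5 of each group, whereas Arntl, Per1 and Per2 were not. The causes were not tested. With 3 pools per group, the precision is set mainly by the spread between pools rather than by depth.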
